A study of Homo sapiens with 6 samples.

Results

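The glycolysis and hypoxia response genes followed here are 40 of the 23698 gene rows measured in MV4-11, an established acute myeloid leukaemia cell line that carries an internal tandem duplication in FLT3. They were chosen by symbol, and every symbol matched 1 row: 16 glycolytic enzymes, 7 genes of glucose supply and flux control, 6 genes of hypoxia-inducible factor (HIF) and its oxygen sensing, and 11 HIF targets outside glycolysis. Poly(A) RNA was sequenced from 3 libraries of cells stably carrying a lentiviral hairpin against PRMT5, an enzyme that places symmetric dimethyl marks on arginine, and from 3 libraries of cells stably carrying a scrambled hairpin. All 6 libraries thus come from transduced cells of 1 line, grown in serum-supplemented medium; the labels state no oxygen level and no glucose treatment. The hairpin sequence and the number of hairpins used are not given in the labels.

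Glycolysis splits glucose into pyruvate, which lactate dehydrogenase can turn into lactate for export. HIF is a pair of a labile alpha subunit (HIF1A or EPAS1) and the stable partner ARNT. With oxygen, EGLN prolyl hydroxylases mark the alpha subunit for destruction by the VHL ubiquitin ligase; without it, HIF accumulates and switches on glucose transporters, glycolytic enzymes and genes of angiogenesis, pH control and mitophagy. HIF is controlled mainly through protein stability, so the mRNA of HIF1A is not a measure of HIF activity.

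HIF binds hypoxia response elements, whose core is ACGTG or GCGTG. Promoter sequences (RefSeq, GRCh38.p14) were matched by symbol for 35 of the 40 genes, all but SLC2A3, VHL, VEGFA, BNIP3L and NDRG1. Only the first listed start of each symbol was used, and the 250 bases before it were searched on both strands. Motifs at any other start of a gene were thus not counted. ACGTG was present in 8 of 16 glycolytic enzyme promoters (50%), 6 of 8 promoters of HIF targets outside glycolysis (75%), 1 of 6 in the supply and flux group and 1 of 5 in the HIF and sensing group, against 18.7% of 27305 promoters in the table. GCGTG was present in 37.1% of the members' promoters and 31.9% of all. The members' promoters were also richer in G and C, at 67.6% against 56.9%, and the part of base composition in these shares was not tested. The promoters below belong to the 5 genes that varied most between the libraries among those that passed the filter on low counts and held ACGTG. They were thus chosen for the motif as well as for their spread. CA9 also held ACGTG but fell below that filter, so its spread was not ranked. The promoter of ENO1 is shown as the steadier isoenzyme beside ENO2. Capitals mark ACGTG or its reverse complement CACGT; where both overlap, the run reads CACGTG, which is also the E-box letters that MYC and BHLHE40 proteins bind. The windows are, on the strand given: ENO2 chr12:6914330-6914579 (plus); ENO1 chr1:8878687-8878936 (minus); ALDOC chr17:28576896-28577145 (minus); ANKRD37 chr4:185396591-185396840 (plus); P4HA1 chr10:73096867-73097116 (minus); BNIP3 chr10:131981924-131982173 (minus).
ENO2: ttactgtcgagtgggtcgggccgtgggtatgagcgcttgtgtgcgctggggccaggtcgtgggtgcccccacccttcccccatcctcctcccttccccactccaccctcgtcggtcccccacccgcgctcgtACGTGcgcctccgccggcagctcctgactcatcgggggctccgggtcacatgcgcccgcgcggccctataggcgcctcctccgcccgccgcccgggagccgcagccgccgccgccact
ENO1: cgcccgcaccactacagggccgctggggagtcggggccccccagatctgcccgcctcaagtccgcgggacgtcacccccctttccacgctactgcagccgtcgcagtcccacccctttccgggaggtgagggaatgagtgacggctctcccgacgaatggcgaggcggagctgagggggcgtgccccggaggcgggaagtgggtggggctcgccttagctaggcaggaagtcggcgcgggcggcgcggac
ALDOC: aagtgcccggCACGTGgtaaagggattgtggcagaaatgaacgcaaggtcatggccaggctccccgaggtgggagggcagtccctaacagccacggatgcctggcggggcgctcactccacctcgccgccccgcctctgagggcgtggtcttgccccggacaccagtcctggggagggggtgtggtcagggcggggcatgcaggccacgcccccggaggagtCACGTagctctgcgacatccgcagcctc
ANKRD37: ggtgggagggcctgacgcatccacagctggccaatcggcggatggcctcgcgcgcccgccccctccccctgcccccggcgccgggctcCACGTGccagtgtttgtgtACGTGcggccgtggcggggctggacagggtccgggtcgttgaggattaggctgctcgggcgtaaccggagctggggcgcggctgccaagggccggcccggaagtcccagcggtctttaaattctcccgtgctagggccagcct
P4HA1: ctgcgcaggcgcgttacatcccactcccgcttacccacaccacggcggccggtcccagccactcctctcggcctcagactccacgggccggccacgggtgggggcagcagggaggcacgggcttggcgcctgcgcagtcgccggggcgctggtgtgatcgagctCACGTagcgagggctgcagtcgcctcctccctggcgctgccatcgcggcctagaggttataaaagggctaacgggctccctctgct
BNIP3: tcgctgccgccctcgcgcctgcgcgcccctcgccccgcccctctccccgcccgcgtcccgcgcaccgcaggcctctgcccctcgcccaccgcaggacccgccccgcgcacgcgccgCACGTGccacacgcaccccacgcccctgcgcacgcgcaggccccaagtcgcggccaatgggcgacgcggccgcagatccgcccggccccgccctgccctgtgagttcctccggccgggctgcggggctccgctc
Counted with −1 as the base just before the gene's start, the leftmost letters of the motif lie at −118 in ENO2, at −240 and −28 in ALDOC, at −162 and −143 in ANKRD37, at −86 in P4HA1 and at −134 in BNIP3. The ENO1 window held no ACGTG and 2 matches to GCGTG. ADM, PFKFB4 and PDK1 varied more than P4HA1 and BNIP3 and held no ACGTG in their windows; ADM and PFKFB4 had 1 GCGTG each and PDK1 had none. A match is a stretch of letters and was not tested for binding.

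Levels are given as CPM, depth-scaled counts with TMM factors, and each log2 difference subtracts the control from the knockdown level. Library totals were 16408585 to 19077171 counts. PRMT5 itself read 103, 71.6 and 53.0 CPM in knockdown 1 to 3, beside 133, 53.2 and 158 CPM under the labels control 1 to 3, so the library labelled control 2 goes against its label, and its PRMT5 difference between groups did not pass (log2 −0.60, SE 0.43, edgeR adjusted p = 0.926). That library also stood apart across genes, with correlations of 0.876 to 0.923 to the other 5 in log2 CPM, while knockdown 3 and control 3 correlated at 0.995 (these r are over genes, which are not replicates). All 10 myeloid markers were at or above 1 CPM in every library (summed level 1804 to 2655 CPM in the knockdown, 1661 to 2521 CPM in the controls). Single markers moved far more than that sum, and in both directions. In the library labelled control 2, MPO was at 13.8 CPM and LYZ at 35.3 CPM, the lowest of the 6 libraries for both. The other 5 held 56.5 to 503 CPM and 429.7 to 1268 CPM. Of the 10 markers, 3 were lowest in that library (36.7% of all genes tested were). Another 3, CSF3R, ITGAM and CD68, were highest there (34.4% of all genes). T cell markers summed to at most 0.227 CPM, with CD3E, CD2 and LCK at 0 counts, and B cell markers to 7.52 to 16.1 CPM. The 5 epithelial markers, of which 2 reached 1 CPM in every library and EPCAM had 0 counts, summed to 17.0 to 28.1 CPM in the knockdown libraries and 15.3 to 52.1 CPM in the controls. The 5 fibroblast markers, none at 1 CPM in every library and COL1A2 and COL3A1 at 0 counts, summed to 0.940 to 3.10 and 1.65 to 6.68 CPM. The library labelled control 2 was the highest for both of these lists, as it was for many of the genes below, and their part in the results was not tested. The labels do not say whether replicates are separate cultures, so p-values measure only the spread between these libraries, which may be technical. In such bulk RNA, fewer cells that express a gene and less RNA per cell cannot be told apart.

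The question of the design is whether lowering PRMT5 changes expression, and for these genes no difference between the groups passed the test. Of the 40 members, 37 passed the filter on low counts, and 0 of the 37 had an adjusted p under 0.05 (edgeR quasi-likelihood test over 13668 genes, of which 0% were called; smallest adjusted p 0.926). DESeq2 and limma-voom called 0 genes as well, with 461 and 117 genes at an unadjusted p under 0.05. At an unadjusted p under 0.05 the edgeR test held 242 genes (1.77% of those tested), among them 2 members, PFKFB3 on the higher side (0.571% of all genes) and ANKRD37 on the lower side (1.2% of all genes). The groups did not overlap for LDHA and EGLN1, lower in all 3 knockdown libraries (3.1% of all genes tested), and for PFKFB3, higher in all 3 (3.14%). These counts of members are too few to be compared with the shares of all genes. The directions leaned lower: 33 of 37 members had a lower mean in the knockdown libraries (89.2%, median log2 difference −0.41), against 50.1% of all genes tested (median 0.00 to 2 decimals). With total-count scaling, 29 of 37 were lower (78.4%, against 45% of all genes), and without the library labelled control 2 also 29 of 37, with a median of −0.23.

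**Figure D1:**
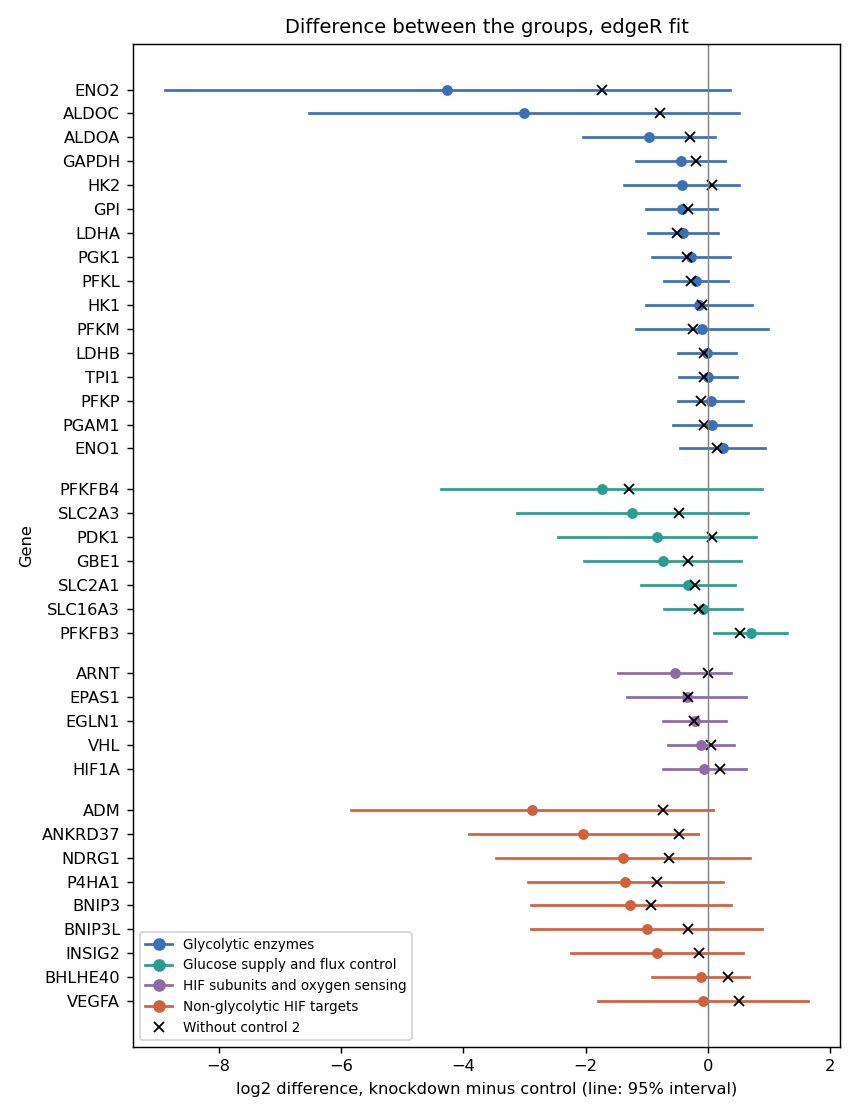
Log2 difference of each tested gene (y axis) between 3 knockdown and 3 control libraries (x axis, knockdown minus control), as points with 95% intervals from the edgeR fit, coloured by class; crosses give the difference without the library labelled control 2. Only the intervals of PFKFB3 (0.10 to 1.29) and ANKRD37 (−3.91 to −0.17) leave out 0 before adjustment, and the long intervals belong to ENO2, ALDOC, ADM and PFKFB4.

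Glycolytic enzymes and HIF targets outside glycolysis differed in how far they spread. The 16 glycolytic enzymes had a median log2 difference of −0.23, with 13 lower and 3 higher in the knockdown libraries. The 9 tested HIF targets outside glycolysis were all lower, with a median of −1.27. Supply and flux genes stood between, at −0.74 (6 of 7 lower), and the 5 tested HIF and sensing genes were near the enzymes, at −0.22 (5 of 5 lower). Without the library labelled control 2 the medians were −0.22 for the enzymes, −0.47 for the HIF targets (7 of 9 lower), −0.22 for supply and flux and −0.0033 for HIF and sensing, and without knockdown 2 the median of the HIF targets was −1.99. The range over the 6 libraries, highest minus lowest log2 CPM, had a median of 0.99 in the enzymes and 2.69 in the HIF targets, beside 1.08 in all genes tested. These are descriptions of lists; the difference between the classes was not tested.

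The order of the libraries was shared by most HIF targets and did not follow the groups. Against each gene's mean over 6 libraries, the median of the 9 HIF targets was 1.62 log2 units in the library labelled control 2, 0.97 in control 1 and 0.49 in knockdown 2. It was −0.82 in knockdown 1, −1.17 in knockdown 3 and −1.09 in control 3. So both libraries numbered 3 were low, whichever hairpin they carried. All 9 HIF targets were highest in the library labelled control 2 (34.4% of all genes tested were), and 6 of 9 were lowest in control 3 (15.0% of all genes). In the glycolytic enzymes the same medians were flatter, from −0.27 in knockdown 1 to 0.25 in control 1, with 0.00 in the library labelled control 2.

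**Figure D2:**
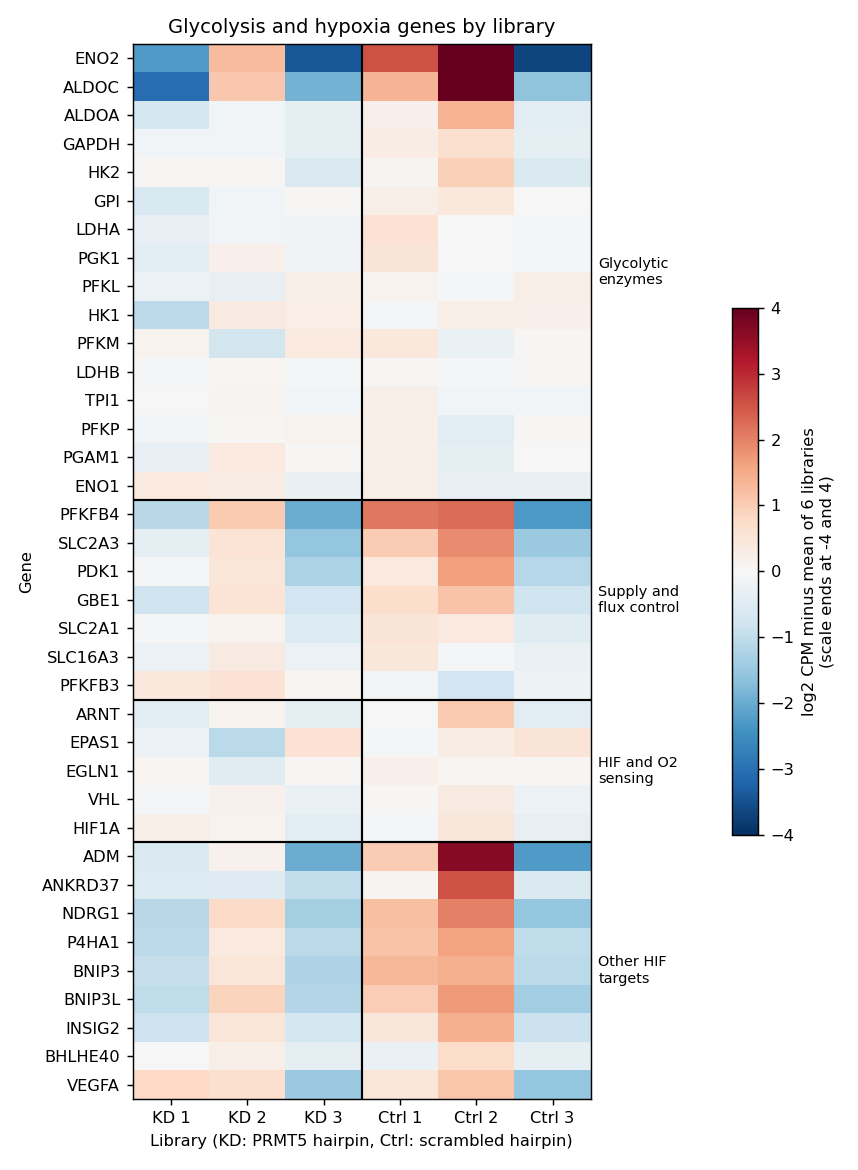
Each cell is the log2 CPM of a tested gene (rows, grouped by class and ordered by group difference) in a library (columns) minus that gene's mean over the 6 libraries; red is above the mean, blue below, and the colour scale ends at −4 and 4. Control 1, the library labelled control 2 and knockdown 2 are red for most HIF targets, knockdown 3 and control 3 are blue, and most glycolytic enzymes are pale.

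The widest spread among the enzymes lay in minor isoenzymes of the pathway. ENO2, the neuronal enolase, read 1.57, 19.3 and 0.649 CPM in knockdown 1 to 3, beside 46.9, 361 and 0.518 CPM under the labels control 1 to 3. The groups overlapped: control 3 was the lowest library of all and the library labelled control 2 the highest, 698-fold apart. Its log2 difference was −4.26 (SE 1.98, adjusted p = 0.926, edgeR), −1.73 without the library labelled control 2 and −6.93 without knockdown 2. ENO1, the ubiquitous enolase that makes phosphoenolpyruvate, read 2856, 2672 and 1774 CPM with the PRMT5 hairpin, beside 2604, 1763 and 1803 CPM under the control label. It varied 1.62-fold, with knockdown 1 and 2 and control 1 high, and had a log2 difference of 0.24 (SE 0.30). ENO2 made up 17.0% of ENO1 plus ENO2 counts in the library labelled control 2 (95% exact interval 16.6 to 17.4), 1.77% in control 1 (1.65 to 1.89) and 0.716% in knockdown 2 (0.639 to 0.798). In the other 3 libraries its share was 0.0287% to 0.0548%, from 10 to 30 counts of ENO2. Such intervals cover counting error only, because PCR copies of a molecule were counted as separate reads.

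Aldolase, which cleaves fructose bisphosphate, had the same 3 high libraries in its brain form ALDOC, and another order among the low ones. ALDOC read 3.13, 56.5 and 7.03 CPM with the PRMT5 hairpin, beside 68.8, 460.4 and 8.55 CPM under the control label. Knockdown 1 was the lowest and the library labelled control 2 the highest, 147-fold apart, with overlapping groups (log2 difference −3.01, SE 1.51; −0.79 without the library labelled control 2 and −5.13 without knockdown 2). ALDOA, the main aldolase of most tissues, read 732, 1109 and 910.1 CPM against 1376, 3098 and 886 CPM. Only the library labelled control 2 was far from the rest, and without it the log2 difference went from −0.96 to −0.30. The share of ALDOC in ALDOA plus ALDOC counts was 12.9% in the library labelled control 2 (12.7 to 13.2), 4.76% in control 1 (4.5 to 5.03) and 4.85% in knockdown 2 (4.55 to 5.16). It was 0.426% to 0.956% in knockdown 1, knockdown 3 and control 3.

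**Figure D3:**
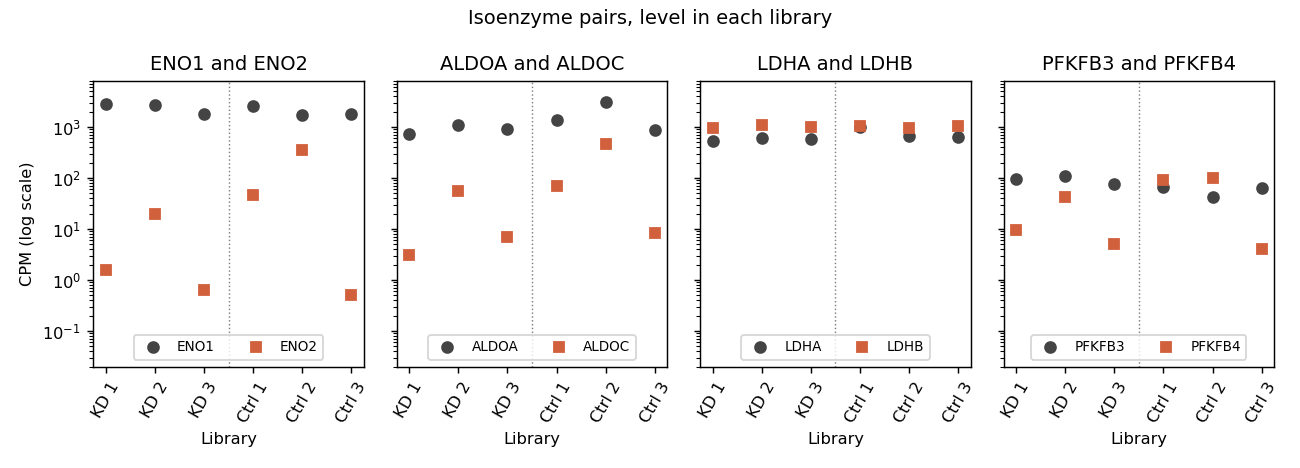
CPM on a log scale (y axis) in each of the 6 libraries (x axis; KD knockdown, Ctrl control) for 4 pairs of related enzymes, 1 point per library. ENO2, ALDOC and PFKFB4 are high in knockdown 2, control 1 and the library labelled control 2 and low in the other 3, while ENO1 and LDHB are flatter and PFKFB3 is higher in every knockdown library than in every control.

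The first steps of the pathway spread less. HK2, the inducible hexokinase that traps glucose as glucose 6-phosphate, read 159, 158 and 102 CPM with the PRMT5 hairpin, beside 165, 299 and 103 CPM under the control label. Pairs 1 and 3 were nearly level, and the library labelled control 2 stood above the rest (log2 difference −0.43, SE 0.40, and 0.07 without that library). HK1, the constitutive hexokinase, read 12.6, 33.2 and 31.5 CPM against 25.4, 30.9 and 29.7 CPM. Only knockdown 1 was low. Per kilobase of the longest GENCODE v29 coding transcript, HK2 averaged 28.5 CPM over the 6 libraries and HK1 averaged 6.81, so HK2 was the main hexokinase of the pair. GPI, which converts glucose 6-phosphate to fructose 6-phosphate, read 396, 561 and 618 CPM against 713, 799.5 and 610.4 CPM, with knockdown 3 just above control 3 (log2 difference −0.43, SE 0.25; −0.27 without knockdown 1).

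Phosphofructokinase, the committed step, was nearly level. PFKL, the liver form, read 145, 136 and 198 CPM with the PRMT5 hairpin, beside 186, 164 and 198 CPM under the control label. PFKP, the platelet form, read 144, 161 and 170.5 CPM against 184, 116 and 161 CPM. Their log2 differences were −0.20 (95% interval −0.72 to 0.32) and 0.05 (−0.49 to 0.58), and the groups overlapped for both. PFKM, the muscle form, was near the floor at 0.850 to 2.04 CPM (log2 difference −0.09, −1.17 to 0.98).

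In the later steps, which yield ATP and lactate, the largest differences apart from that of ENO2 were in GAPDH and LDHA. GAPDH, the dehydrogenase that makes 1,3-bisphosphoglycerate, read 2362, 2354 and 2002 CPM with the PRMT5 hairpin, beside 3120, 4022 and 1994 CPM under the control label. Controls 1 and 2 as labelled were above every knockdown library and control 3 below, with a log2 difference of −0.44 (95% interval −1.17 to 0.28) and −0.19 without the library labelled control 2. LDHA, the lactate dehydrogenase subunit that HIF induces, read 531, 614 and 596 CPM against 997, 674 and 642 CPM. All 3 controls were above all 3 knockdown libraries, though knockdown 2 and control 3 were close (log2 difference −0.41, SE 0.25, adjusted p = 0.926, edgeR; −0.50 without the library labelled control 2 and −0.18 without control 1). LDHB, the other subunit, read 978, 1079 and 999 CPM against 1068, 965 and 1065 CPM. Its range of 0.16 log2 units was smaller than that of all but 0.256% of the genes tested. LDHA made up 48.3% of LDHA plus LDHB counts in control 1 (47.8 to 48.8), 41.1% in the library labelled control 2 (40.5 to 41.7) and 35.2% to 37.6% in the other 4 libraries. Per kilobase, LDHB was above LDHA (667 against 279.7 CPM averaged over 6 libraries).

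The remaining enzymes did not separate the groups. PGK1, which makes the first ATP of the pathway, ran from 444 CPM in knockdown 1 to 865 CPM in control 1 (log2 difference −0.27, 95% interval −0.91 to 0.36; −0.05 without control 1). PGAM1, the mutase, ran from 373 CPM in the library labelled control 2 to 636 CPM in knockdown 2 (0.07, −0.57 to 0.71). TPI1, triose phosphate isomerase, held 351 to 444 CPM and a difference of 0.00 to 2 decimals (−0.48 to 0.47). Summed over all 16 enzymes, the level was 9529.8, 10689 and 8802 CPM in knockdown 1 to 3, beside 12436, 14072 and 8916 CPM under the labels control 1 to 3. The 2 higher controls were above every knockdown library, and control 3 was below 2 of them. Processed pseudogenes of GAPDH, LDHA, LDHB, PGK1, PGAM1, TPI1 and ENO1 could share reads with these rows, so their levels are uncertain to that extent.

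Of the genes that feed and set the flux, PFKFB4, SLC2A3 and GBE1 followed the HIF targets and PFKFB3 did not. SLC2A1, PDK1 and SLC16A3 had the same high libraries in another order. PFKFB3 and PFKFB4 make fructose 2,6-bisphosphate, the activator of phosphofructokinase. PFKFB3 read 96.7, 108 and 76.0 CPM with the PRMT5 hairpin, beside 67.0, 42.8 and 63.2 CPM under the control label. Every knockdown library was above every control, by a log2 difference of 0.70 (95% interval 0.10 to 1.29, unadjusted p = 0.0272, edgeR adjusted p = 0.926), with 0.53 to 0.83 when each library was left out in turn. Between same-numbered libraries the difference was 0.53, 1.34 and 0.26. PFKFB4 read 9.71, 43.1 and 5.19 CPM against 90.6, 99.2 and 4.14 CPM. Controls 1 and 2 as labelled were high and control 3 was the lowest of all, a log2 difference of −1.74 (SE 1.13), −1.29 without the library labelled control 2 and −3.11 without knockdown 2. PFKFB4 counts exceeded those of PFKFB3 in 2 libraries: its share of both was 57.5% in control 1 (55.6 to 59.3) and 69.9% in the library labelled control 2 (67.9 to 71.8), 28.5% in knockdown 2 (26.7 to 30.3) and 6.15% to 9.13% in the other 3.

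SLC2A3 (GLUT3), a high-affinity glucose transporter, read 150.3, 288 and 66.8 CPM with the PRMT5 hairpin, beside 397, 727 and 70.9 CPM under the control label. Knockdown 3 and control 3 were the 2 lowest libraries, and the log2 difference of −1.24 (SE 0.81) was −0.47 without the library labelled control 2 and −1.87 without knockdown 2. The near-identical SLC2A14 could share its reads. SLC2A1 (GLUT1), the widespread transporter, read 43.5, 49.5 and 30.3 CPM against 64.1, 58.6 and 31.6 CPM (log2 difference −0.32, SE 0.33; −0.13 without control 1 and −0.58 without control 3). Here too the libraries numbered 3 were lowest. PDK1, which shuts pyruvate dehydrogenase, ran from 20.4 CPM in knockdown 3 to 152 CPM in the library labelled control 2, and its log2 difference of −0.83 (SE 0.69) became 0.06 without that library. GBE1, the glycogen branching enzyme, read 44.5, 113 and 46.2 CPM against 127, 169.8 and 44.4 CPM (−0.74, SE 0.55; −0.33 without the library labelled control 2 and −1.32 without knockdown 2). SLC16A3 (MCT4), which exports lactate, held 117 to 191 CPM (−0.08, 95% interval −0.72 to 0.56).

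The mRNAs of HIF itself varied less than most of its targets outside glycolysis. Their ranges over the 6 libraries were 0.91 log2 units in HIF1A, 1.64 in EPAS1 and 1.47 in ARNT. The median range was 2.69 in the HIF targets, of which BHLHE40 had 1.09, and 1.08 in all genes tested. HIF1A read 85.8, 79.0 and 52.5 CPM with the PRMT5 hairpin, beside 70.5, 98.9 and 57.1 CPM under the control label (log2 difference −0.06, 95% interval −0.74 to 0.62). The libraries numbered 3 were the lowest in both groups. EPAS1 (HIF-2 alpha) read 18.4, 10.2 and 32.0 CPM against 20.2, 26.1 and 30.7 CPM. It ran the other way, highest in knockdown 3 and control 3 (−0.35, −1.32 to 0.62; −0.03 without knockdown 2 and −0.84 without knockdown 3). ARNT read 74.4, 110.3 and 75.5 CPM against 101, 205 and 73.8 CPM, high only in the library labelled control 2, without which its log2 difference of −0.54 was −0.0033. Per kilobase, HIF1A averaged 18.7 and EPAS1 4.44 CPM.

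Of the oxygen-sensing genes, VHL read 98.8, 118 and 87.1 CPM with the PRMT5 hairpin, beside 107, 134 and 89.2 CPM under the control label (log2 difference −0.12, 95% interval −0.66 to 0.43). EGLN1, the main HIF prolyl hydroxylase, read 206, 140.3 and 203 CPM against 223, 209 and 207 CPM. Its groups did not overlap, but only knockdown 2 was clearly lower (−0.22, −0.73 to 0.29; −0.06 without it). EGLN3, a HIF-induced hydroxylase in many cells, had 0 to 3 counts per library and was not tested.

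The HIF targets outside glycolysis included the members with the widest differences after ENO2 and ALDOC. ADM, the vasodilator peptide adrenomedullin, read 8.15, 13.7 and 2.97 CPM with the PRMT5 hairpin, beside 25.1, 155 and 2.43 CPM under the control label. Control 3 was the lowest library and the library labelled control 2 the highest, 63.8-fold apart (log2 difference −2.88, SE 1.27, adjusted p = 0.926, edgeR; −0.73 without that library). ANKRD37, an ankyrin repeat gene induced by HIF1A, read 4.39, 4.50 and 3.19 CPM against 6.92, 38.5 and 4.25 CPM. Only the library labelled control 2 stood out, and the log2 difference of −2.04 (SE 0.80, unadjusted p = 0.0364, adjusted p = 0.926) was −0.47 without it. CA9, the carbonic anhydrase used as a marker of hypoxia, was below the filter: it had 1, 7 and 0 counts in knockdown 1 to 3, beside 95, 68 and 0 under the labels control 1 to 3. A count of 0 allows up to 3 counts, or 0.162 CPM in knockdown 3 and 0.155 CPM in control 3. Control 1 and the library labelled control 2 were far above that limit, knockdown 2 slightly above it.

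BNIP3 and BNIP3L, receptors that mark mitochondria for autophagy, had the same 3 high libraries. BNIP3 read 16.4, 44.0 and 13.2 CPM with the PRMT5 hairpin, beside 79.0, 83.4 and 14.6 CPM under the control label (log2 difference −1.27, SE 0.70; −0.93 without the library labelled control 2 and −1.99 without knockdown 2). BNIP3L read 32.4, 121 and 29.1 CPM against 129, 213 and 25.0 CPM (−1.0, SE 0.81; −0.33 without the library labelled control 2 and −1.99 without knockdown 2). Knockdown 2 sat with the higher controls and control 3 with the lower knockdown libraries for both. NDRG1, a stress-induced cytoplasmic protein gene, read 65.6, 244 and 56.9 CPM against 331, 582 and 48.3 CPM (−1.39, SE 0.89; −0.63 without the library labelled control 2 and −2.38 without knockdown 2).

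P4HA1, the collagen prolyl hydroxylase subunit, read 62.6, 169 and 61.5 CPM with the PRMT5 hairpin, beside 284, 398 and 63.2 CPM under the control label. Controls 1 and 2 as labelled were above every knockdown library, and control 3 lay with knockdown 1 and 3 (log2 difference −1.35, SE 0.68; −0.83 without the library labelled control 2 and −2.0 without knockdown 2). Its relative P4HA2 held 1 to 3 counts per library and was not tested. INSIG2, which restrains sterol synthesis, read 9.87, 24.8 and 10.8 CPM against 24.1, 47.3 and 9.63 CPM (−0.83, SE 0.60; −0.15 without the library labelled control 2 and −1.38 without knockdown 2).

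VEGFA and BHLHE40 departed from this order in knockdown 1. VEGFA, the angiogenic growth factor, read 812, 726 and 166 CPM with the PRMT5 hairpin, beside 647, 998 and 160.1 CPM under the control label. Knockdown 3 and control 3 were about equally low, the other 4 libraries high, and the log2 difference was −0.08 (95% interval −1.80 to 1.64; 0.50 without the library labelled control 2). BHLHE40, a hypoxia-induced repressor of transcription, read 182, 211 and 141 CPM against 147, 294 and 138 CPM (−0.12, −0.91 to 0.67). In pair 1 VEGFA and BHLHE40 were higher in the knockdown library, by 0.33 and 0.31, while the other 7 HIF targets were lower, by −2.33 to −0.64.

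Same-numbered libraries gave different pictures in the 3 pairs. In pair 1 the medians of knockdown minus control in log2 CPM were −0.50 for the enzymes (15 of 16 lower) and −1.61 for the HIF targets (7 of 9 lower). In pair 2 they were −0.20 (9 of 16) and −0.93 (9 of 9). In pair 3 they were 0.00 (8 of 16) and 0.05 (3 of 9), and all 37 tested members lay within 0.5 log2 units of 0, where 94.5% of all genes tested did. PRMT5 had its lowest level relative to control in that same pair, 53.0 against 158 CPM. Knockdown 3 and control 3 correlated at 0.995 across all genes tested. A link between the PRMT5 level and the differences of the members was not tested. The part of the library labelled control 2 in pair 2 was not tested beyond leaving it out.

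**Figure D4:**
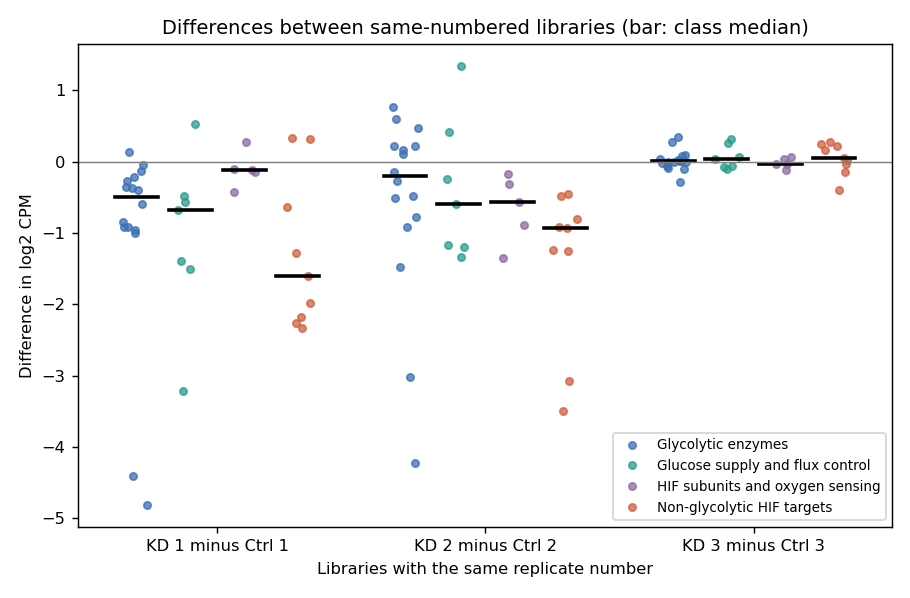
Difference in log2 CPM (y axis) between the knockdown and control library of the same number (x axis), 1 point per tested gene, coloured by class, with a bar at the class median. The HIF targets lie at a median of −1.61 and −0.93 in pairs 1 and 2 and at 0.05 in pair 3, where all points lie between −0.40 and 0.34.

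Genes of the same pathways that are not among the 40 were read from the same fit, and 0 of them passed it. Of 29 further glycolysis genes, 18 were tested, 8 lower and 10 higher (median log2 difference 0.19). PKM, the pyruvate kinase of non-liver tissues, read 802, 1500.3 and 826 CPM with the PRMT5 hairpin, beside 954, 908 and 797 CPM under the control label (0.23, SE 0.30), high in knockdown 2 alone. ENO3, TIGAR, MPC2 and BPGM had the smallest p-values, with −0.80, 0.86, −0.43 and −0.55. Of 12 further HIF system genes, 10 were tested, 2 lower and 8 higher (median 0.11). They were led by the coactivator gene CREBBP (0.33) and by CITED2 (0.35), whose protein competes with HIF for that coactivator. ELOC (0.17) and RBX1 (0.20) of the VHL ligase came next. Of 35 further HIF targets, 27 were tested, 22 lower and 5 higher (median −0.46; −0.17 and 16 of 27 lower without the library labelled control 2).

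Among these further targets HILPDA, a lipid droplet protein gene, read 20.9, 43.6 and 19.2 CPM with the PRMT5 hairpin, beside 69.1, 328 and 18.4 CPM under the control label. It repeated the order of ADM and NDRG1 (log2 difference −2.31, SE 0.94, adjusted p = 0.926, edgeR; −0.64 without the library labelled control 2). NARF had −1.10 (SE 0.54; −0.32 without that library). STC2, a secreted glycoprotein gene, read 179, 104 and 17.8 CPM against 51.2, 6.94 and 17.4 CPM (1.99, SE 0.92). It was lowest in the library labelled control 2, where 15 of the 27 tested further targets were highest. HMOX1, haem oxygenase, read 9.50, 7.90 and 7.14 CPM against 2.55, 2.92 and 7.15 CPM (0.96, SE 0.46), low in controls 1 and 2 as labelled.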

How the data were processed

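The authors deposited estimated counts per gene, 1 table for each library and not scaled to depth; per the submitters' processing notes, the build was hg19 and the tools included TopHat2 (version 2), CASAVA 1.9 and edgeR, in roles that are not stated. Not given in the sources used here: the counting tool, its annotation and any use of strand. Counts were rounded to whole numbers; 40.3% to 42.3% of values were whole as deposited (tolerance 1e-06).

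Genes kept by filterByExpr (minimum count 10) entered edgeR's quasi-likelihood test (version 4.0.16, R 4.3.3) after TMM scaling, with group alone in the model, two-sided, Benjamini-Hochberg adjustment over all 13668 tested genes, threshold 0.05. SEs and 95% intervals come from that fit, and a prior count of 2 was added for log2 CPM. Exact permutation tests were not used, since 3 libraries against 3 reach at best p = 0.1. Alternatives were other scalings and filters, DESeq2 1.42.0, limma-voom (limma 3.58.1), a replicate block and libraries left out. The test was also run on simulated counts drawn independently for each library. Those counts do not carry the closeness of knockdown 3 to control 3 or the distance of the library labelled control 2. That run therefore does not settle how the test behaves here. Promoters are RefSeq's on GRCh38.p14, matched by symbol; transcript lengths are from GENCODE v29.

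The members and lists were chosen with earlier results of these data known. Values in every library are given for the 14 members with the smallest p, the 8 with the largest range of log2 CPM, isoenzyme pairs, HIF and sensing genes, and some others; of the further pathway genes, up to 4 per list with the smallest p, and PKM, are named. Both groups carry the numbers 1 to 3. Deviations from the group means correlated at 0.127, 0.394 and 0.566 in same-numbered libraries, each above 0.1, and these are called pairs. Knockdown 2 with control 1 (0.164) exceeded the lowest of these. Such deviations cancel out over a group, so some positive correlations arise without any pairing. The check therefore cannot establish a pairing, least of all for pair 1, and the labels themselves do not state one. The result of 1 further marker list is not reported here.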

Additional observations from a re-analysis of the deposited data

How the results depend on the processing

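No gene was called under any of the 17 alternatives, 0 in each. Of the 37 tested members, 23 kept the direction of their difference under all of them and 14 turned under at least 1. Without the library labelled control 2, 23 of 37 differences were over 1.5 times smaller or turned; without both libraries numbered 2 this held for 18. The cause was not tested. At this spread (median SE 0.33 over all genes tested) and with 3 libraries a group, small differences were not detectable. Large ones did not pass either: ENO2 had −4.26 (SE 1.98), ALDOC −3.01 (SE 1.51) and ADM −2.88 (SE 1.27).

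With the replicate block, TPI1 turned to 0.0025 and no other member did; the class medians became −0.27, −0.59, −0.24 and −1.11 for enzymes, supply and flux, HIF and sensing, and HIF targets, and the block changed no call.

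TPI1 also turned under upper quartile scaling (0.01), total counts (0.03), no count filter (0.00059) and limma-voom (0.0034). Under total counts LDHB (0.02), HIF1A (0.0045) and VEGFA (0.0022) turned. Without both libraries numbered 2, PFKM (0.03), PFKP (−0.13), PGAM1 (−0.28), HIF1A (0.12), VEGFA (0.28) and BHLHE40 (0.18) turned. After the data were seen, both libraries numbered 1 or 3 were also left out. Without those numbered 1 the median of the enzymes was −0.06, and HK1 (0.08), PFKM (0.02), TPI1 (0.10), PGK1 (0.07), LDHB (0.02) and SLC16A3 (0.23) turned; without those numbered 3, LDHB (0.01) did.

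Leaving out each library in turn, the median ranged from −0.41 to −0.16 for the enzymes, from −1.25 to −0.22 for supply and flux, from −0.30 to −0.0033 for HIF and sensing and from −1.99 to −0.47 for the HIF targets. Members that turned ranged from −0.31 to 0.32 (BHLHE40), −0.22 to 0.19 (HIF1A), −0.37 to 0.17 (HK1), −0.73 to 0.07 (HK2), −0.06 to 0.01 (LDHB), −1.27 to 0.06 (PDK1), −0.35 to 0.19 (PFKM), −0.12 to 0.19 (PFKP), −0.13 to 0.24 (PGAM1), −0.30 to 0.15 (SLC16A3), −0.06 to 0.12 (TPI1), −0.53 to 0.50 (VEGFA) and −0.24 to 0.05 (VHL).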

Other observations

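DDIT4 and MXI1 are further HIF targets picked out after their values were seen, and both were lowest in the libraries numbered 3, as VEGFA was. DDIT4, an inhibitor of mTOR signalling, read 1687, 1105 and 266 CPM with the PRMT5 hairpin, beside 1005, 1634 and 271 CPM under the control label. Knockdown 1 was the highest library. MXI1, a MYC antagonist, was at 103, 116 and 37.4 CPM against 122, 196 and 32.3 CPM, highest in the library labelled control 2. MIR210HG, the host transcript of the hypoxia-induced miR-210, followed ENO2 and CA9 in part, at 0.157, 7.41 and 0.216 CPM against 21.6, 6.03 and 0.311 CPM. Control 1 was its highest library, as it was for CA9 (5.39 CPM, beside 4.41 CPM in the library labelled control 2). ENO2 was instead highest in the library labelled control 2. Knockdown 2 was above that library for MIR210HG, but not for ENO2 or CA9. The log2 differences of DDIT4, MXI1 and MIR210HG were 0.07, −0.45 and −1.85, and none passed the edgeR test.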
